A study of Mus musculus with 19 samples.

Results

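Plat, Hprt, Tpx2, Orc6 and Il7 are 5 of the 25891 genes listed in the expression table of CPEB3-deficient mouse oocytes and embryos. They were picked by name, as mRNAs that stay silent in the growing oocyte and are known to receive a poly(A) tail when it matures. All 5 were found under their symbols and all 5 passed the filter on low values in both stages. The products are the secreted protease tissue plasminogen activator (Plat), the secreted cytokine interleukin 7 (Il7), the purine salvage enzyme hypoxanthine phosphoribosyltransferase (Hprt), the spindle assembly factor TPX2 (Tpx2) and a subunit of the origin recognition complex (Orc6).

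The 19 RNA-seq libraries comprise 5 Het_MII and 5 KO_MII libraries of MII oocytes (mature oocytes arrested in metaphase of meiosis) and 5 Het_2cell and 4 KO_2cell libraries of 2cell embryos. The cells came from superovulated BL6 females, 6 to 10 weeks old, which were given 5 IU of PMSG. For ovulated MII oocytes and for embryos, 5 IU of hCG followed 48 h later. The methods also describe oocytes matured in culture and do not state which MII oocytes were sequenced. Embryos were grown in culture from zygotes of mated females and taken 37 h after hCG. KO (CPEB3-/-) females lacked floxed Cpeb3 through a Cre transgene under the Zp3 promoter, which is active in growing oocytes, and Het stands for CPEB3+/- females. The genotype is therefore that of the mother, and the study gives wild-type males as mates of the KO females. The methods describe 5 cells a library in quadruplicate, whereas the labels list 5, 5, 5 and 4 libraries, all of which were used. Nothing states whether libraries of a group came from separate females, so the p-values measure only the spread between libraries, which may be technical.

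In the full-grown oocyte transcription is off, and new protein comes from stored mRNAs. Many of these carry a U-rich cytoplasmic polyadenylation element (CPE) close to the AAUAAA or AUUAAA hexamer that directs cleavage and polyadenylation. CPEB proteins bind the CPE, keep the mRNA in a short-tailed, silent state, and after meiosis resumes favour tail elongation and translation. Plat was an early example of this control in the mouse, and Hprt another. After fertilization most maternal mRNAs are degraded while the embryonic genome becomes active.

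The 3′ ends of the 5 mRNAs were read first, since the CPE and the hexamer lie there. In GENCODE vM21 (genome GRCm38), Plat lies at chr8:22757727-22782844 (plus strand), Hprt at chrX:52988137-53021659 (plus), Tpx2 at chr2:152847964-152895321 (plus), Orc6 at chr8:85299632-85308278 (plus) and Il7 at chr3:7569994-7613760 (minus). All are protein coding, and all windows below lie in the last 150 bases of a 3′UTR. Each is shown 5′ to 3′ as mRNA, because it holds the hexamer nearest the end, the U-rich element nearest to that hexamer or, in the shorter Tpx2 end, which had no hexamer, the U-rich element nearest the end, and capitals mark these motifs. The U-rich motifs searched were the element UUUUAU, its longer variants UUUUAAU and then UUUUAAAU, and the related UUUUACU and lastly UUUUCAU, which can overlap one another and the hexamers, on the mRNA strand only.

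Plat hexamer, chr8:22782804-22782833: cuguacuuaaauAAUAAAuucagagguauu
Plat U-rich element, chr8:22782762-22782791: ucuauuuuaguUUUUACUuuguuacuauaa
Hprt, both, chrX:53021624-53021653: uuccUUUUAAAUgcaaauaAAUAAAuucua
Tpx2 hexamer, longest 3′UTR, chr2:152895292-152895321: guaagccagccccaAUUAAAuguuguuuau
Tpx2 U-rich element, shorter 3′UTR, chr2:152894608-152894637: gagauuucuugaUUUUAUauauuugguuuu
Orc6, both, longest 3′UTR, chr8:85308249-85308278: ucaagcccAAUAAAuguuauUUUUAUaugc
Orc6 U-rich element, shorter 3′UTR, chr8:85308005-85308034: ugguuuuuuaaaUUUUAUuucacuaaaugu
Il7 hexamer, longest 3′UTR, chr3:7569994-7570023: aacuagaaguuaagguaAAUAAAcugcugc
Il7 U-rich element, 3′UTR of 658 bases, chr3:7573269-7573298: auagcagauauUUUUAAAUaaaaguauuuu

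Plat has 1 annotated coding 3′ end, with a 3′UTR of 738 bases. Its last 150 bases hold 3 U-rich elements, which begin 125, 89 and 72 bases before the end, ahead of the hexamer at 29. Hprt also has 1 end (545 bases), where the U-rich element begins 32 bases before the end, next to overlapping copies of AAUAAA at 21 and 17. In Orc6 the longest 3′UTR (568 bases) has its U-rich element after the hexamer, while the shorter one (361 bases) has 3 elements between 82 and 49 bases from the end, ahead of the hexamer. The longest 3′UTR of Tpx2 (1630 bases) ends with AUUAAA and had no U-rich match in the window, and the shorter one (963 bases) had UUUUAU and no hexamer. The longest of Il7 (3846 bases) had only the hexamer, and of its 4 distinct coding ends the one of 658 bases had a U-rich match.

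Over the longest 3′UTRs, 3 of the 5 mRNAs (Plat, Hprt and Orc6) had a U-rich element together with a hexamer in the last 150 bases. Of all 18986 genes with such a window, 25.1% had both, 30.1% had a U-rich element and 80.0% had a hexamer. By single motif, UUUUAU was in 18.4% of these windows, UUUUAAU in 6.65%, UUUUAAAU in 3.33%, UUUUACU in 3.002% and UUUUCAU in 4.09%. Searched over the whole longest 3′UTR, all 5 mRNAs had both motifs, as had 60.2% of 21022 genes. A match is a description of the letters, and the table does not separate the reads of the alternative ends.

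**Figure D1:**
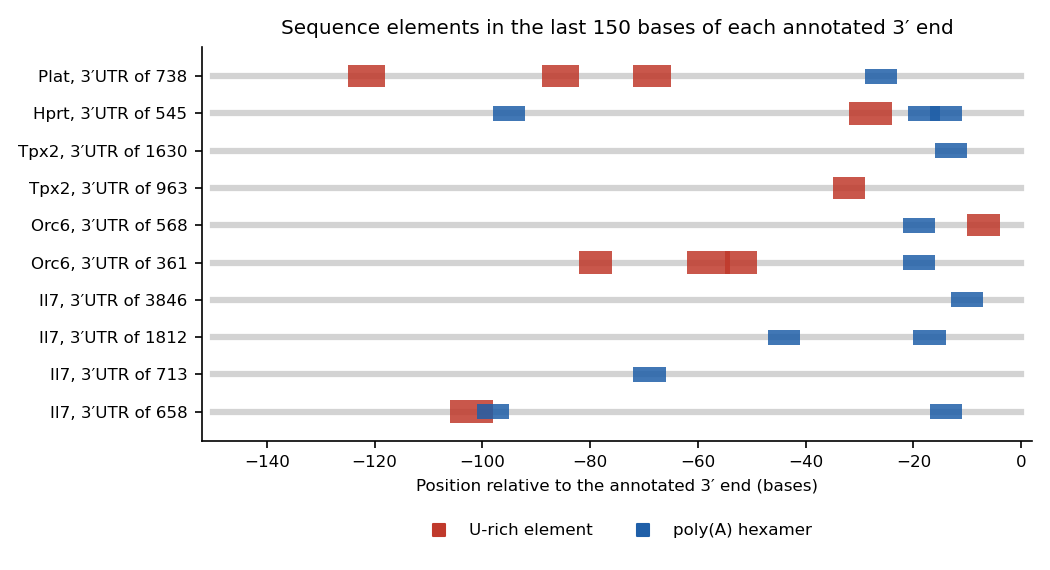
The last 150 bases of each distinct annotated coding 3′ end of the 5 genes, with position relative to the end in bases on the x axis and the length of the 3′UTR beside each name. Red boxes are U-rich elements and blue boxes hexamers, and 6 of the 10 ends have a U-rich element.

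The deposited values are FPKM, which divide the fragments of a gene by transcript length and library size, so levels can be compared between genes. The depth, estimated from the steps between low values, was 17.0 to 23.6 M fragments a library (M, mega). At these depths each level of the 5 genes rests on roughly 25 (Plat in 2cell embryos) to 2564 (Orc6 in MII oocytes) fragments. The library kit primes on the poly(A) tail, so the amount of an mRNA and the part of it that carried a tail cannot be told apart. In such pooled samples, fewer cells and less RNA per cell cannot be told apart either. The kit keeps no strand, and exons of Orc6 share up to 171 bases with Vps35 on the other strand, which was listed at 1.46 to 5.33 FPKM. For Il7 the only exon overlap is with a noncoding gene listed at 0.00547 FPKM at most.

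The labels were checked before the comparisons. Cpeb3 itself, which codes for the deleted CPE-binding protein, was higher in the libraries labelled KO. It was listed at 0.0755 ± 0.0240 FPKM (SD, n = 5) in Het_MII and at 0.162 ± 0.0325 FPKM (SD, n = 5) in KO_MII, and at 0.0303 ± 0.0149 (n = 5) and 0.0554 ± 0.0129 FPKM (n = 4) in 2cell embryos. In MII oocytes the genotypes did not overlap (two-sided exact permutation test, p = 0.00794), and the log2 fold change was 0.53 (limma adjusted p = 0.0144). In 2cell embryos they overlapped (exact permutation p = 0.0476). These levels stand for about 2 to 29 fragments over the whole gene and do not separate the deleted exons, so in all that follows Het and KO mean the libraries labelled so. The 8 oocyte markers summed to 807 to 1128 FPKM in MII libraries and 98.8 to 159 FPKM in 2cell libraries, and the 8 2cell markers to 38.1 to 62.2 and 435 to 818 FPKM. Of 12 cumulus and granulosa markers 8 were in the table and summed to at most 0.603 FPKM in any library, with Foxl2 at 0 in all MII libraries and Fshr and Inhba at 0 in all KO_2cell libraries. Of 5 blood markers only 2, the haemoglobin genes Hba-a1 and Hba-a2, were in the table. Their sum rose from at most 0.428 FPKM in MII to 46.2 to 146 FPKM in 2cell libraries.

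Some of these markers moved with genotype. The cumulus and granulosa sum averaged 0.392 ± 0.0663 FPKM in Het_MII and 0.406 ± 0.106 FPKM in KO_MII (SD, n = 5 each, two-sided exact permutation p = 0.817), and 0.454 ± 0.0926 (SD, n = 5) and 0.290 ± 0.141 FPKM (SD, n = 4) in 2cell embryos (p = 0.0873). Tnfaip6, the only 1 of them tested in 2cell embryos, was lower in KO_2cell (log2 fold change -1.01, limma adjusted p = 0.0145). Of the 2cell markers, Zscan4d (2.89, limma adjusted p = 9.07e-05), Zscan4c (2.24, 9.85e-04) and Zscan4f (1.63, 0.00533) were higher in KO_MII, and Eif1a (-1.44, 0.00341) and Zscan4d (-1.03, 0.0396) were lower in KO_2cell. Of the oocyte markers, Mos was lower in KO_MII (-1.75) and Ooep higher in KO_2cell (0.89, limma adjusted p = 0.00173). The call of Zscan4d in 2cell embryos held in 3 of 9 fits with 1 library left out (not without B, D or E of Het_2cell or A, C or D of KO_2cell), and with the GC trend removed neither it nor Tnfaip6 was called in 2cell embryos. The part of these markers in the members' results was not tested.

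A library that stood apart and a trend with GC content touch the members. Library A of KO_MII correlated less with the rest of its group (r = 0.963 over genes) than the other MII libraries did (0.974 to 0.983), and it gave the lowest KO_MII value of all 5 members. The slope of log2 level on GC content also moved with genotype: per 10% of GC it was -0.24 to -0.034 in Het_2cell and 0.13 to 0.34 in KO_2cell, with no overlap (two-sided exact permutation test, p = 0.00794), and -0.32 to 0.040 in Het_MII and -0.020 to 0.38 in KO_MII (p = 0.0476). The highest slope of the MII libraries, 0.38, belonged to library A of KO_MII. The transcripts of the members with the longest coding sequence contain 50.02% GC (Plat), 47.8% (Tpx2), 45.1% (Orc6), 40.1% (Hprt) and 39.0% (Il7). The slopes and the removal of the trend used the longest transcript of each gene instead. Genotype values with this trend removed are therefore given beside the calls of the 5 mRNAs.

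In each stage the question was whether loss of maternal CPEB3 changes the level of these mRNAs. Levels and means are given in FPKM as deposited, whereas log2 fold changes come from libraries rescaled by trimmed means and from averages of logs, so the 2 can differ in sign where the difference is small. Genes were called at an adjusted p under 0.05 (limma, Benjamini-Hochberg) and more than 1.5-fold change on the log2(FPKM + 0.1) scale. In MII oocytes 1 of the 5 mRNAs, Plat, was lower in KO, where 7.29% of the 10515 genes tested were. In 2cell embryos 3 of 5, Hprt, Tpx2 and Orc6, were lower in KO, where 9.85% of 14051 genes were. None of the 5 was higher in KO in either stage. The median log2 fold change of the 5 was -0.57 in MII oocytes and -0.69 in 2cell embryos, against 0.01 and -0.01 over all genes tested. Without library A of KO_MII the median in MII oocytes was -0.29. With libraries scaled to the column sum, 0 of the 5 were called in 2cell embryos and their median was -0.33, against 0.26 over all genes, and with the replicate letter as a block 0 were called, at a median of -0.67.

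Without any model, every KO library lay below every Het library for Plat in MII oocytes and for Hprt, Tpx2 and Orc6 in 2cell embryos. This held for 7.57% of the genes tested in MII oocytes and 9.56% in 2cell embryos. Il7 overlapped between genotypes in both stages. Of the 10 exact permutation tests of members and stages (two-sided), these 4 had an adjusted p of 0.0397 and the other 6 ran from 0.175 to 0.976.

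**Figure D2:**
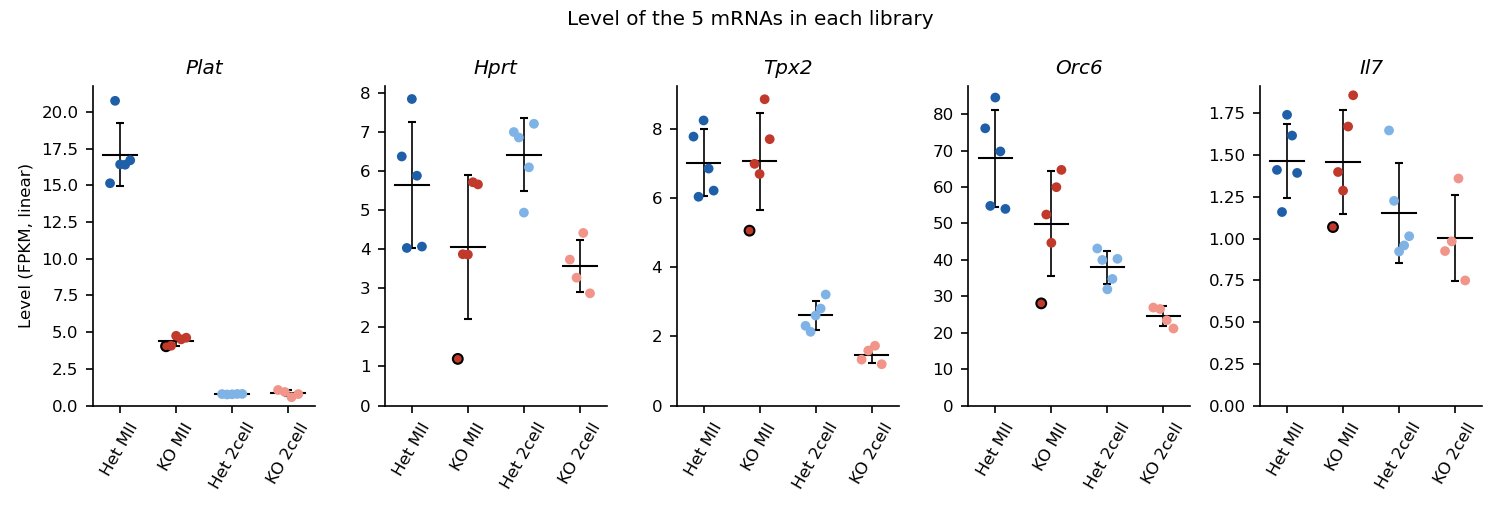
Level of each mRNA in FPKM (linear y axis from 0) in every library of the 4 groups, with the group mean (bar) and SD (whisker). The black ring marks library A of KO_MII, which gave the lowest value of its group in every panel, and the genotypes do not overlap for Plat in MII oocytes.

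Plat encodes the protease that turns plasminogen into plasmin and is released by the oocyte around ovulation. In Het_MII libraries A to E it was at 15.1, 20.8, 16.4, 16.4 and 16.7 FPKM. In KO_MII libraries A to E it was at 4.04, 4.08, 4.75, 4.51 and 4.63 FPKM. The groups were far apart, and the spread within KO_MII was small.

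The mean of Plat was 17.1 ± 2.14 FPKM (SD, n = 5) in Het_MII and 4.40 ± 0.324 FPKM (SD, n = 5) in KO_MII, 3.88-fold lower. The log2 fold change was -2.02 (standard error 0.0960, 95% confidence interval -2.24 to -1.81, limma adjusted p = 5.75e-06). Plat had the smallest p of all 10515 genes tested in MII oocytes (place 1) and place 14 from the lowest log2 fold change. The two-sided exact permutation test gave p = 0.00794, the smallest these libraries allow, or 0.0397 after adjustment over the 10 tests of members and stages. With the GC trend removed the value was -1.98, and without library A of KO_MII -1.97.

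In Het_2cell libraries A to E, Plat was at 0.785, 0.757, 0.770, 0.794 and 0.797 FPKM. In KO_2cell libraries A to D it was at 1.06, 0.928, 0.571 and 0.785 FPKM. KO libraries thus lay on both sides of the narrow Het range, with means of 0.781 ± 0.0167 (n = 5) and 0.837 ± 0.211 FPKM (n = 4). KO and Het differed by a log2 fold change of 0.010 (95% confidence interval -0.38 to 0.40, limma adjusted p = 0.977), and the interval leaves out a change of 1.5-fold in either direction. With column sum scaling the value was 0.32 (limma adjusted p = 0.245) and its interval, -0.10 to 0.75, holds a rise of 1.5-fold.

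The genotype difference of Plat itself differed between the stages. The stage by genotype interaction was 2.08 on the log2 scale (standard error 0.183, limma adjusted p = 4.28e-06), where 7.89% of 15786 genes had an adjusted p under 0.05. Among those genes Plat had place 5 by p. It was the only member that passed. From MII to 2cell, the mean of Plat fell 21.9-fold in Het, to 4.57% of the MII level, and 5.26-fold in KO, to 19.02%. The higher MII level in Het was thus followed by nearly the same 2cell level in both genotypes.

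Il7, a cytokine known for lymphocyte development and also secreted by the maturing oocyte, did not pass the test for genotype in either stage. It was at 1.41, 1.16, 1.74, 1.62 and 1.39 FPKM in Het_MII libraries A to E and at 1.07, 1.398, 1.29, 1.67 and 1.86 FPKM in KO_MII libraries A to E. The means, 1.46 ± 0.224 and 1.46 ± 0.312 FPKM (SD, n = 5 each), nearly coincided, and the log2 fold change was -0.11 (95% confidence interval -0.52 to 0.30, limma adjusted p = 0.698).

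In Het_2cell libraries A to E, Il7 was at 1.65, 1.23, 0.922, 0.958 and 1.01 FPKM. In KO_2cell libraries A to D it was at 0.925, 0.983, 1.36 and 0.749 FPKM. The ranges overlapped, and the log2 fold change was -0.23 (95% confidence interval -0.76 to 0.29, limma adjusted p = 0.520). This interval still holds a fall of 1.5-fold. With the GC trend removed the sign of the Il7 values turned, to 0.17 in both stages, and neither passed.

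Hprt encodes the enzyme that salvages hypoxanthine and guanine for nucleotide synthesis, and its gene is X-linked. In Het_MII libraries A to E it was at 6.37, 4.03, 7.84, 5.88 and 4.07 FPKM. In KO_MII libraries A to E it was at 1.19, 3.87, 3.86, 5.71 and 5.65 FPKM. Library A of KO_MII stood well below the rest, and the other 4 lay partly within the Het range.

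The log2 fold change of Hprt in MII oocytes was -0.69 (standard error 0.418, 95% confidence interval -1.61 to 0.24, limma adjusted p = 0.256), which did not pass. Without library A of KO_MII it was -0.29 (adjusted p = 0.470), so library A moved it by more than 1.5 times.

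In 2cell embryos Hprt was lower in KO. It was at 6.99, 6.85, 4.93, 6.09 and 7.20 FPKM in Het_2cell libraries A to E and at 3.73, 3.27, 4.41 and 2.87 FPKM in KO_2cell libraries A to D. The groups did not overlap, with means of 6.41 ± 0.928 (SD, n = 5) and 3.57 ± 0.663 FPKM (SD, n = 4), 44.3% lower in KO. Hprt changed by -0.89 on the log2 scale (standard error 0.175, limma adjusted p = 0.00856), and the two-sided exact permutation test gave p = 0.0159 (0.0397 adjusted over 10 tests). With the GC trend removed it was -0.52 (limma adjusted p = 0.0421), under 1.5-fold.

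Tpx2 binds and activates Aurora A and nucleates spindle microtubules. In MII oocytes the ranges of the genotypes overlapped. Het_MII libraries A to E had 7.77, 6.03, 8.24, 6.85 and 6.21 FPKM, and KO_MII libraries A to E had 5.05, 6.98, 6.69, 8.85 and 7.69 FPKM. The means were 7.02 ± 0.962 and 7.05 ± 1.39 FPKM (SD, n = 5 each), and the log2 fold change of the rescaled values was -0.10 (95% confidence interval -0.51 to 0.31, limma adjusted p = 0.716). With the values as deposited it was -0.0057.

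In 2cell embryos Tpx2 was lower in KO. Het_2cell libraries A to E had 2.30, 2.13, 2.60, 2.80 and 3.21 FPKM, and KO_2cell libraries A to D had 1.33, 1.59, 1.73 and 1.19 FPKM. All 4 KO libraries lay below the lowest Het library, with means of 1.46 ± 0.243 (SD, n = 4) and 2.61 ± 0.424 FPKM (SD, n = 5), 44.0% lower. Tpx2 changed by -0.85 on the log2 scale (standard error 0.162, limma adjusted p = 0.00759, two-sided exact permutation p = 0.00794, 0.0397 adjusted over 10 tests). With the GC trend removed it was -0.80 (limma adjusted p = 0.0113), and Tpx2 kept its call.

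The difference between the stages was tested for Tpx2 as well. The interaction was -0.70 (standard error 0.263, limma adjusted p = 0.115) and did not pass. Without library A of KO_MII it was -0.90 (limma adjusted p = 0.0233), and with the values as deposited and all libraries kept -0.79 (0.0348), both past the threshold.

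Orc6, a subunit of the complex that marks replication origins, was the most abundant of the 5 in every group. Het_MII libraries A to E had 76.1, 54.8, 84.6, 69.8 and 54.0 FPKM, and KO_MII libraries A to E had 28.1, 52.5, 44.7, 59.97 and 64.7 FPKM. Library A of KO_MII was again the lowest, and 2 of the 5 KO libraries lay within the Het range. The log2 fold change was -0.57 (standard error 0.262, 95% confidence interval -1.15 to 0.0043, limma adjusted p = 0.137), and without library A of KO_MII -0.36 (adjusted p = 0.247), a move of over 1.5 times.

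In 2cell embryos Orc6 was lower in KO. Het_2cell libraries A to E had 43.1, 40.0, 31.9, 34.8 and 40.3 FPKM, and KO_2cell libraries A to D had 26.9, 26.5, 23.4 and 21.2 FPKM. The groups did not overlap, with means of 38.0 ± 4.55 (SD, n = 5) and 24.5 ± 2.72 FPKM (SD, n = 4), 35.6% lower. Orc6 changed by -0.69 on the log2 scale (standard error 0.143, limma adjusted p = 0.0102, two-sided exact permutation p = 0.0159, 0.0397 adjusted over 10 tests). With the GC trend removed it was -0.58 (limma adjusted p = 0.0200), just under 1.5-fold.

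**Figure D3:**
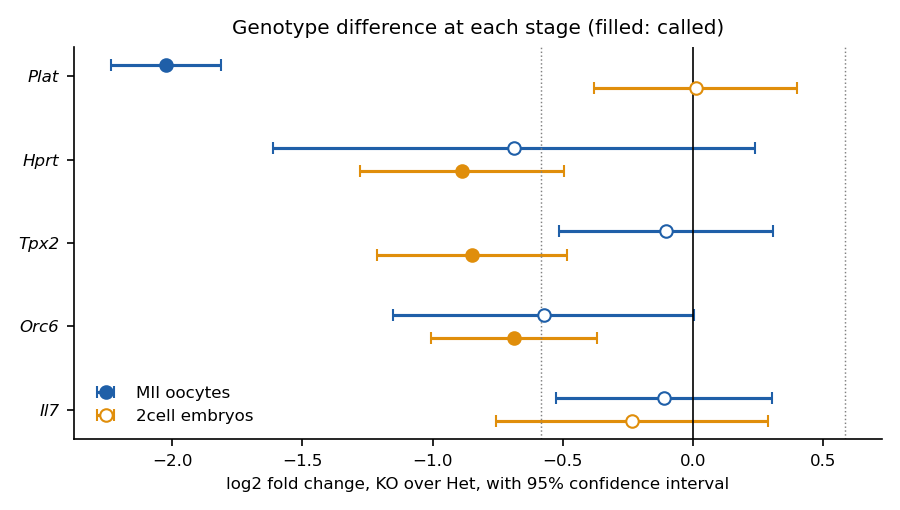
Log2 fold change of KO over Het with its 95% confidence interval (x axis) for each mRNA (y axis) in MII oocytes (blue) and 2cell embryos (orange), where filled points were called and dotted lines mark 1.5-fold. Plat is at -2.02 in MII oocytes and 0.010 in 2cell embryos, and the 3 called values of 2cell embryos lie between -0.89 and -0.69.

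The 3 calls in 2cell embryos depended on the scaling of the libraries. Scaling to the column sum in place of trimmed means moved the median of all genes by 0.28 in 2cell embryos and 0.14 in MII oocytes, and the split of calls in 2cell embryos from 1181 higher and 1384 lower to 2429 higher and 571 lower. In MII oocytes the split went from 588 higher and 767 lower to 1115 and 477. Under this scaling Hprt was at -0.54, Tpx2 at -0.51 and Orc6 at -0.33 in 2cell embryos and none was called, while Plat in MII oocytes was at -1.85 and was called. All 3 stayed lower in KO and lay further below the median of all genes than these values show.

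**Figure D4:**
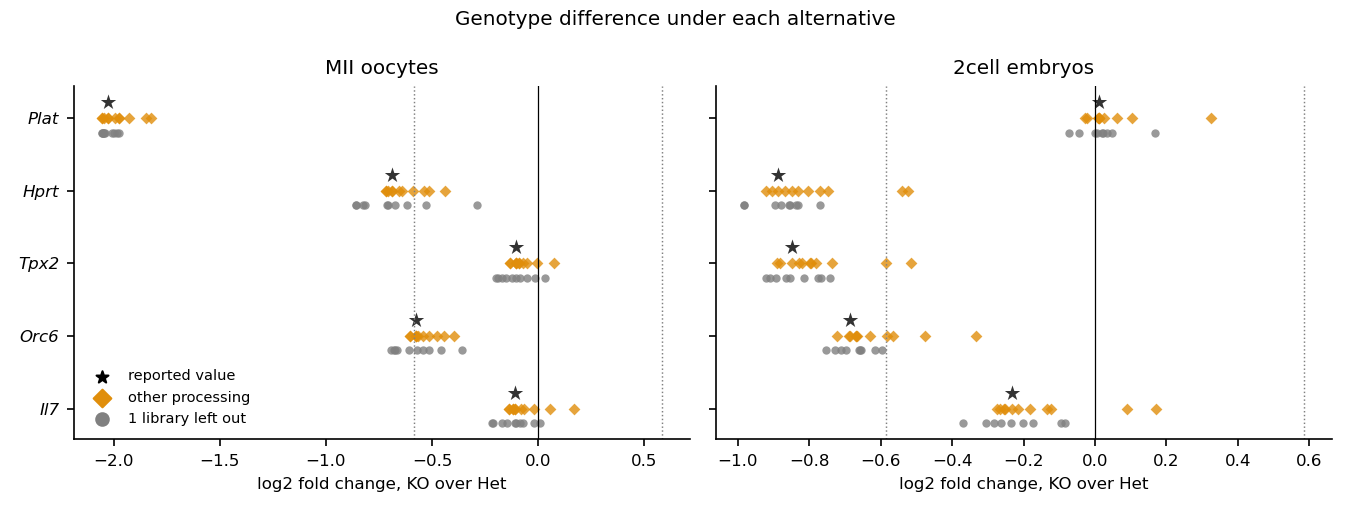
Log2 fold change of KO over Het (x axis) for each mRNA in MII oocytes and 2cell embryos, as reported (star), under other processing (diamonds) and with 1 library left out at a time (circles), with dotted lines at 1.5-fold. Plat in MII oocytes stays between -2.06 and -1.82, whereas in 2cell embryos Hprt, Tpx2 and Orc6 cross the 1.5-fold line under some settings.

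Plat, Tpx2 and Orc6 fell from MII oocytes to 2cell embryos in both genotypes. In counts, 3 of 5 were called lower in Het, where 28.5% of 15786 genes were, and 4 of 5 in KO (Il7 also), where 27% were. The median log2 fold change of the 5 was -1.06 in Het and -1.13 in KO, against 0.20 and 0.21 over all genes tested. The stage comparisons and the genotype comparisons use the same libraries. Scaling to the column sum changed the split of stage calls from 6006 higher and 4503 lower to 4994 and 5956 in Het and from 6024 and 4258 to 5326 and 5583 in KO, and that of the interaction from 611 and 635 to 824 and 429.

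By gene, the log2 fold change from MII to 2cell in Het was -4.51 for Plat (standard error 0.126, limma adjusted p = 8.12e-16), -1.64 for Tpx2 (0.180, 1.66e-07) and -1.06 for Orc6 (0.224, 3.20e-04). In KO it was -2.43 for Plat (limma adjusted p = 1.11e-11), -2.33 for Tpx2 (3.31e-09) and -1.13 for Orc6 (3.37e-04). Plat, Tpx2 and Orc6 had every 2cell library below every MII library of the same genotype. In means, the 2cell level of Tpx2 was 37.2% of the MII level in Het and 20.7% in KO, and for Orc6 56.0% and 49.0%. These are relative levels in FPKM and do not give the part of the maternal mRNA that remained.

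Il7 and Hprt moved less. Il7 was at -0.57 in Het (limma adjusted p = 0.0177, under 1.5-fold) and fell in KO, at -0.64 (0.0123), and its ranges overlapped between the stages. The difference between 3 called mRNAs in Het and 4 in KO thus rests on Il7. In KO it missed a call with the values as deposited (-0.50), a pseudocount of 1 (-0.38) or the GC trend removed (-0.33, limma adjusted p = 0.0927), and without library D of KO_MII (-0.58), E of KO_MII (-0.54) or D of KO_2cell (-0.52, adjusted p = 0.0524). In Het it was called with column sum scaling (-1.06), quantile normalization (-0.83) or a pseudocount of 0.01 (-0.61), and without library B or E of Het_MII (-0.68 and -0.61) or A or B of Het_2cell (-0.69 and -0.59). Hprt was at -0.024 in Het (95% confidence interval -0.75 to 0.70) and -0.18 in KO (-0.94 to 0.59), so a change of 1.5-fold lies within both intervals. Without library A of KO_MII the KO value of Hprt was -0.63 (limma adjusted p = 0.0299), past the threshold.

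The order of the levels changed with the stage. In Het_MII it was Orc6, Plat, Tpx2, Hprt and Il7, and only Tpx2 overlapped with the next in the order, Hprt. In KO_MII Plat came after Tpx2 and overlapped with Hprt, as Hprt did with Il7. In Het_2cell the order was Orc6, Hprt, Tpx2, Il7 and Plat with no overlap between neighbours. In KO_2cell it was the same order, but Tpx2, Il7 and Plat overlapped with their neighbours.

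Genes with the most similar profile over the 19 libraries were named by Pearson's r of log2 levels among 10882 genes, as a description, since stage sets most of each profile and all genes share the libraries. For Orc6 the closest was Ccnb1 (r = 0.986), which encodes cyclin B1, followed by Hsbp1 (0.982). For Plat they were Slc35b3 (0.981) and Ormdl1 (0.981), for Tpx2 Ptpn2 (0.991) and Eif3e (0.988), for Hprt Ccndbp1 (0.952) and Tank (0.932), and for Il7 Gtf2a2 (0.946) and Gipc2 (0.938). Ccnb1 averaged 160 FPKM in Het_MII, 89.1 in KO_MII, 60.6 in Het_2cell and 34.9 in KO_2cell. Among the 5 themselves r ran from 0.209 (Hprt with Plat) to 0.897 (Orc6 with Tpx2).

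The other genes of the pathway were taken from fixed lists, to be read against all genes tested, of which 5.59% were called higher and 7.29% lower in KO_MII and 8.41% higher and 9.85% lower in KO_2cell. The machinery list holds CPE-binding proteins, cleavage and polyadenylation factors, poly(A)-binding proteins and other regulators. Of its 29 names 28 were in the table and 24 were tested in each stage. In MII oocytes 2 rose and 2 fell in KO: Ybx2, an mRNA storage protein, by a log2 fold change of 1.05 (limma adjusted p = 0.00544) and the kinase gene Mapk3 by 0.77 (0.00593), against Pabpc1, a poly(A)-binding protein, at -0.82 (0.00247) and Wdr33, which binds the hexamer, at -0.59 (0.0346), named after its values were seen. In 2cell embryos Ybx2 (1.27, limma adjusted p = 0.00205) and Pabpc1l, the oocyte and embryo form of poly(A)-binding protein (0.80, 0.0232), were higher and Wdr33 (-0.83, 0.00902) lower. The list median was 0.11 in MII oocytes and 0.098 in 2cell embryos. Ybx2 was at 0.336 ± 0.0921 and 0.864 ± 0.279 FPKM (SD, n = 5 each) in Het_MII and KO_MII.

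A list of 14 other mRNAs known to be recruited in maturation was tested in full. In MII oocytes 3 fell in KO and 0 rose: Mos, the kinase that holds the MII arrest (-1.75, limma adjusted p = 1.52e-04), the deadenylase Cnot7 (-1.15, 0.0193) and Ccnb1 (-0.999, 0.0403). Mos, like Plat, overlapped between the genotypes in 2cell embryos, with 1.82 ± 0.874 FPKM in Het (SD, n = 5) and 1.96 ± 0.894 FPKM in KO (SD, n = 4), after 214 ± 47.8 and 67.5 ± 12.3 FPKM (SD, n = 5 each) in MII oocytes. Its interaction was 1.81 (limma adjusted p = 0.0153). In 2cell embryos Ccnb1 (-0.87, limma adjusted p = 0.0112) and Cnot7 (-0.86, 0.0223) were lower and the decapping factor gene Dcp1a (0.66, 0.0462) higher. The list median was -0.30 in MII oocytes and -0.13 in 2cell embryos.

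Of 5 mRNAs known to lose their tail in maturation, 0 were called in MII oocytes and 1 in 2cell embryos, Oosp1, an oocyte-secreted protein gene (-0.70, limma adjusted p = 0.0240). The list medians were -0.043 and -0.0063.

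Partners of each product were counted in the same way. Of 6 genes of plasminogen activation, 4 were in the table, 1 was tested in MII oocytes and 2 in 2cell embryos, and 0 were called. Of 10 genes of purine salvage and synthesis, 5 were tested in MII oocytes, where Pnp was higher (0.62, limma adjusted p = 0.00156) and Gmps lower (-0.67, 0.00553). In 2cell embryos 4 of 8 tested were lower in KO, as Hprt was, and 0 were higher. The 3 largest were Aprt, the salvage enzyme for adenine, at -1.14 (limma adjusted p = 0.00635), Ppat at -0.99 (0.00549) and Prps1 at -0.97 (0.00153), and the list median was -0.64. Prps1, which makes the ribose donor that Hprt and Aprt use, was at 33.5 ± 3.41 FPKM in Het_2cell (SD, n = 5) and 17.8 ± 1.55 FPKM in KO_2cell (SD, n = 4).

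Of 6 spindle assembly partners of Tpx2, 0 were called in MII oocytes. In 2cell embryos the spindle motor gene Kif11 (-0.97, limma adjusted p = 0.00364) and the importin gene Kpna2 (-0.86, 0.0175) were lower and Numa1 (0.72, 0.0250) higher. Of the 5 other origin recognition genes, Orc4 was lower in both stages (-0.82, limma adjusted p = 0.0131, at the MII stage and -0.87, 0.0299, at the 2cell stage) and the other 4 were not called. Of the 6 interleukin 7 signalling genes, 2 were tested in MII oocytes, where Stat5a was higher (0.66, limma adjusted p = 0.0195), and 3 in 2cell embryos, where the receptor chain gene Il2rg was lower (-1.31, 0.00324).

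The list calls moved with the processing, in alternatives run after the data were seen (12 of processing, and 10 fits with 1 MII library left out or 9 with 1 2cell library left out). In MII oocytes the call of Mos held in all of them. Cnot7, Mapk3, Ybx2, Pabpc1, Pnp, Gmps and Orc4 were called in all 10 left-out fits and in 8 to 11 of the 12 alternatives, where a gene left untested by a filter counts as not called. The call of Ccnb1 held in 5 of 10 left-out fits (not without A, C or D of Het_MII or B or C of KO_MII) and in 9 of 12. Wdr33 was called in 4 of 10 (not without A, C or D of Het_MII or A, B or C of KO_MII) and in 6 of 12, and Stat5a in 9 of 10 (not without C of Het_MII) and in 8 of 12. The MII calls of Mapk3, Gmps, Orc4 and Stat5a were lost with the GC trend removed.

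In 2cell embryos the calls of Aprt, Prps1 and Ybx2 held in all alternatives. Ppat, Ccnb1, Wdr33, Kif11 and Il2rg were called in all 9 left-out fits and in 8 to 11 of 12 alternatives. The same held for Gmps, also a lower partner of Hprt (-0.81, limma adjusted p = 0.0139), in 9 of 9 and 8 of 12. Cnot7 and Kpna2 were called in 8 of 9 (not without D of KO_2cell) and in 9 and 10 of 12. The other calls of these lists, the markers left aside, held in fewer left-out fits. Dcp1a was called in 2 of 9 (not without B, C, D or E of Het_2cell or B, C or D of KO_2cell), Orc4 in 2 of 9 (not without B, D or E of Het_2cell or any KO_2cell library), Oosp1 in 4 of 9 (not without B or E of Het_2cell or A, B or D of KO_2cell), Numa1 in 4 of 9 (not without B or E of Het_2cell or B, C or D of KO_2cell) and Pabpc1l in 6 of 9 (not without E of Het_2cell or A or B of KO_2cell). Orc4, Oosp1, Numa1, Pabpc1l, Cnot7 and Gmps were not called with the GC trend removed.

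The counts and medians moved too. With column sum scaling 0 of the 14 other recruited mRNAs were lower and 2 higher in 2cell embryos, and the list median was 0.21 there and -0.12 in MII oocytes. Its medians were 0.016 and -0.17 with the GC trend removed. Without D of KO_2cell the 2cell median was -0.027, and without A of KO_MII the MII median was -0.17. The lower calls among the partners of Hprt in 2cell embryos went from 4 to 3 with column sum scaling or the GC trend removed and to 2 with the replicate letter as a block, with medians of -0.31, -0.51 and -0.56. In the machinery list column sum scaling gave 4 higher and 1 lower in MII oocytes and 6 higher and 0 lower in 2cell embryos, with medians of 0.25 and 0.31. Without A of Het_MII its MII median was 0.068, and without A of Het_2cell its 2cell median was 0.038. In the list of mRNAs that lose their tail column sum scaling gave medians of 0.14 and 0.33 with 0 called. Removing the GC trend put the medians of that list at -0.14 and -0.24, with 0 called in MII oocytes and 1 in 2cell embryos, Zp3 (lower) in place of Oosp1.

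**Figure D5:**
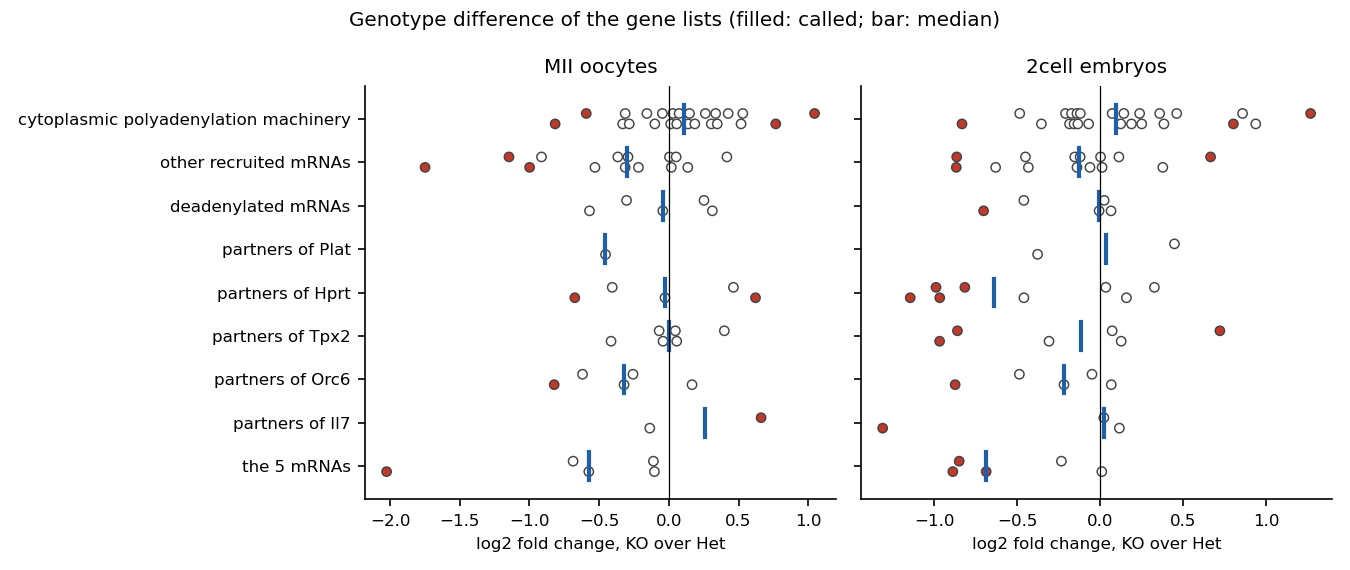
Log2 fold change of KO over Het (x axis) for the tested genes of each list (points, filled where called) with the list median (blue bar), in MII oocytes and 2cell embryos. In MII oocytes Plat at -2.02 and Mos at -1.75 lie lowest of all points, and in 2cell embryos 4 of 8 tested partners of Hprt are called lower.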

How the data were processed

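Per the submitters' processing notes and the methods, reads were trimmed (Trim Galore 0.4.1) and aligned to GRCm38 (HISAT2 2.0.5), and the authors deposited FPKM values computed with SeqMonk. The table had 0 value columns that were not used. Low values fell near whole numbers of fragments (32.6 to 38.3% within 0.05, where 10% would by chance), too few to recover counts, so count tests were not run. Libraries were rescaled with trimmed mean factors (30% of ratios and 5% of levels trimmed per side), and log2(FPKM + 0.1) was fitted in limma 3.58.1 (R 4.3.3) with a variance trend, which can understate changes of low genes. A gene was tested at 0.1 FPKM or more in 5 MII libraries, 4 2cell libraries or, in the fit of all 19, in 4. Motifs were searched in GENCODE vM21 transcripts. Alternatives were other scalings, pseudocounts, filters, a block, removal of the GC trend (loess, span 0.5) and leaving out each library. Named genes were the members, the 2 most similar genes for each, and up to 3 called genes with the largest change from each list in each stage. Wdr33 in MII oocytes and Gmps in 2cell embryos were named besides. The members and lists were chosen with earlier results of these data known. The script was tested on simulated data. Python 3.11.15 with pandas 2.3.3 was used. Library sizes give approximate depths, and fragment numbers cover counting error only.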

Additional observations from a re-analysis of the deposited data

Results flagged for a closer look

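Of the 20 groups of member values examined for a sample apart, 1 was found, where chance gives about 1 in 20. Library B of Het_MII had 20.8 FPKM of Plat, above the other 4 Het_MII libraries (15.1 to 16.7 FPKM). Without it the log2 fold change of Plat in MII oocytes was -1.985, within the range of -2.06 to -1.97 over all libraries left out in turn. The genotype difference of Plat differed between MII oocytes and 2cell embryos, by 2.08 on the log2 scale (limma adjusted p = 4.28e-06). All 5 of 5 KO_MII libraries lay below every Het_MII library. Of the 4 KO_2cell libraries, 2 (A and B) lay above every Het_2cell library, C lay below all of them and D lay within their range.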

How the results depend on the processing

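The genotype difference of Plat in MII oocytes, the interaction of Plat and the stage differences of Plat, Tpx2 and Orc6 kept their direction and their call under all alternatives run. Over the 25 member results, 579 of 639 alternative values kept direction and call, and where a value below turned sign its main value had not passed the test. The cause was not tested. In 2cell embryos, scaling to the column sum left 0 of the 3 calls (Hprt -0.54, Tpx2 -0.51, Orc6 -0.33, with Il7 at 0.090), and in MII oocytes it put Tpx2 at 0.073 and Il7 at 0.056. Removing the GC trend left 1 of the 3 calls (Hprt -0.52, Orc6 -0.58) and put Il7 at 0.17 in both stages. Orc6 also lost its call with quantile normalization (-0.48) and with a filter of 1 FPKM (-0.57), and Hprt with all 19 libraries in 1 fit (-0.87, limma adjusted p = 0.0872). Plat in 2cell embryos was at 0.32 with scaling to the column sum, -0.029 with quantile normalization and -0.021 with no filter, and was not tested at 1 FPKM.

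Over all genes, the replicate letters showed no clear pairing of Het with KO libraries within a stage. Whether the letters mark a batch that touches some of the genes was not tested. Same-lettered libraries deviated together with r of -0.18 to 0.12 for MII and -0.069 to 0.037 for 2cell libraries, and 1 pair in each stage correlated best with its own letter. With the letter as a block, 0 of the 3 calls in 2cell embryos remained (Hprt -0.85, Tpx2 -0.78, Orc6 -0.67, limma adjusted p = 0.0819, 0.0794 and 0.0640), while calls over all genes went from 2565 to 414 at the 2cell stage, from 1355 to 824 at the MII stage and from 1246 to 831 for the interaction. Plat in MII oocytes stayed called (adjusted p = 0.00222).

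Hprt from MII to 2cell in Het was at 0.22 with values as deposited, 0.011 with a filter of 1 FPKM and 0.20 without the GC trend, and in KO at 0.19 without the GC trend. In the interaction, the values as deposited gave 2 members called, and scaling to the column sum put Orc6 at 0.062 and Il7 at 0.031, and removal of the GC trend put Il7 at 0.084. All 5 mRNAs had both motifs over the whole 3′UTR, in place of 3.

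With 1 library left out at a time, the calls in 2cell embryos held in all 9 fits. Tpx2 in MII oocytes ran from -0.20 to 0.032, Il7 in MII oocytes from -0.22 to 0.0074 and Plat in 2cell embryos from -0.072 to 0.17. From MII to 2cell, the call of Il7 was lost in KO without library D or E of KO_MII or D of KO_2cell (-0.58 to -0.52), and Hprt ran from -0.17 to 0.15 in Het and from -0.63 to 0.00030 in KO. In the interaction 1 to 2 members were called, and Hprt ran from -0.61 to 0.028, Orc6 from -0.35 to 0.061 and Il7 from -0.26 to 0.054.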
